A study of Mus musculus with 4 samples.

Results

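A set of 10 genes of the epithelial-mesenchymal transition and of cell-cell adhesion were followed through 4 RNA-seq libraries of mouse mammary cells grown in 3D culture. The genes, out of 54446 genes in the deposited table, were chosen by symbol: the mesenchymal structural genes Vim and Fn1, the transcription factors Snai1, Snai2, Zeb1, Zeb2 and Twist1, and the classical cadherins Cdh1, Cdh2 and Cdh3. The choice was made with earlier results of these data known. A count of the 10 genes set beside a share of all genes is therefore descriptive. All 10 were found once each, and all 10 had an FPKM above 0 in all 4 libraries, as did 17787 genes of the table. FPKM counts a gene's sequenced fragments per kilobase of its exons, relative to the depth of the library, so that levels can be compared between genes.

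The 4 groups held 1 library each: cells labelled basal with DMSO, cells labelled basal with baicalin, and cells labelled luminal with DMSO or with baicalin. Baicalin, a flavonoid of Scutellaria root, was used at 100 μM, and DMSO was the vehicle. All 4 libraries came from mammary gland of wild type C57BL/6 mice. Cells had been sorted by CD29 and CD24 after lineage cells stained for CD31, CD45 and TER119 were gated out, then grown in Matrigel with EGF. The labels give no age. The study's general methods take glands from female mice aged 6 to 9 weeks, virgin or at other stages, and do not say which, how many or of what passage stood behind a library. With 1 library per group there was no replicate check, no test between groups was made and no p-value is given. Intervals are exact Clopper-Pearson 95% intervals for ratios and exact Poisson 95% intervals for single levels. They cover counting error only, and fragments are not independent molecules.

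In epithelial-mesenchymal transition, epithelial cells loosen their junctions and take on a mesenchymal shape and motility. Transcription factors of the Snail, ZEB and Twist families repress E-cadherin by binding E-boxes, and vimentin, fibronectin and N-cadherin are the customary markers of the mesenchymal side. In the mammary gland the outer basal layer normally carries P-cadherin, vimentin and Snai2 beside its keratins, while E-cadherin joins the cells of both layers. A single cell preparation can therefore hold epithelial and mesenchymal markers together, and in bulk RNA fewer cells of a type cannot be told apart from less RNA per cell.

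The cell type labels went against the marker genes. Of 10 basal markers, 10 were at a higher FPKM under the luminal label than under the basal label, both with DMSO and with baicalin. Their summed FPKM was 1761 and 479 in the libraries labelled basal (DMSO, baicalin) and 5404 and 7199 in those labelled luminal. Of 10 luminal markers, 10 were lower in the libraries labelled luminal, with sums of 1377 and 1191 FPKM against 4537 and 3207 FPKM. By more than 1 in log2((FPKM + 1)/(FPKM + 1)), 9 and 10 basal markers were higher, beside 4.71% and 5.24% of all tested genes (DMSO, baicalin). By the same measure 6 and 6 luminal markers were lower, beside 3.86% and 2.99%. The median over all tested genes was 0.01 with DMSO and -0.03 with baicalin. The names basal and luminal are therefore used only as labels of the libraries. Between 19356108 and 20648786 fragments stood behind each library, and all 40 member values came out as whole fragments within 0.1 fragment.

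Vim encodes vimentin, the type III intermediate filament of mesenchymal cells (ENSMUSG00000026728, GRCm38 chromosome 2, 13573927 to 13582826). Its level was 16.2 FPKM in the basal-labelled DMSO library, 2.37 FPKM in the basal-labelled baicalin library, 69.2 FPKM in the luminal-labelled DMSO library and 40.0 FPKM in the luminal-labelled baicalin library. Both luminal-labelled libraries lay above both basal-labelled libraries, and within each label the baicalin library was the lower one. With baicalin, Vim was 6.83-fold lower (95% interval 5.94 to 7.88) in the basal-labelled pair, on 228 against 1524 fragments. In the luminal-labelled pair it was 1.73-fold lower (1.66 to 1.80), on 3913 against 6356 fragments. Among the 10 genes Vim had the largest fall on the log2 scale with 1 FPKM added in both pairs, -2.35 and -0.78.

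Fn1 encodes fibronectin, a matrix glycoprotein that binds integrins (ENSMUSG00000026193, chromosome 1, 71585520 to 71653200). It had 707 FPKM with DMSO and 498 FPKM with baicalin in the basal-labelled libraries, and 50.6 and 72.3 FPKM in the luminal-labelled libraries. The order of the labels was thus opposite to that of Vim, with both basal-labelled libraries above both luminal-labelled ones. The luminal-labelled level was 14.0-fold lower (13.7 to 14.2) with DMSO and 6.89-fold lower (6.78 to 6.997) with baicalin. Baicalin went with less Fn1 in the basal-labelled pair, at a ratio of 0.704 (0.699 to 0.710). It went with more in the luminal-labelled pair, at a ratio of 1.43 (1.39 to 1.46). An antisense gene, Apol7d, overlaps 2.50% of the exon bases of Fn1 and had at most 0.236 FPKM.

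Within a library, Fn1 and Vim stood in very different proportion under the 2 labels. The FPKM ratio of Fn1 to Vim was 43.7 (41.5 to 45.9) in the basal-labelled DMSO library and 209.9 (184 to 240.1) in the basal-labelled baicalin library. It was 0.731 (0.709 to 0.754) in the luminal-labelled DMSO library and 1.81 (1.747 to 1.87) in the luminal-labelled baicalin library. Fn1 was thus above Vim in 3 of the 4 libraries, and the ratio was higher with baicalin under both labels.

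**Figure D1:**
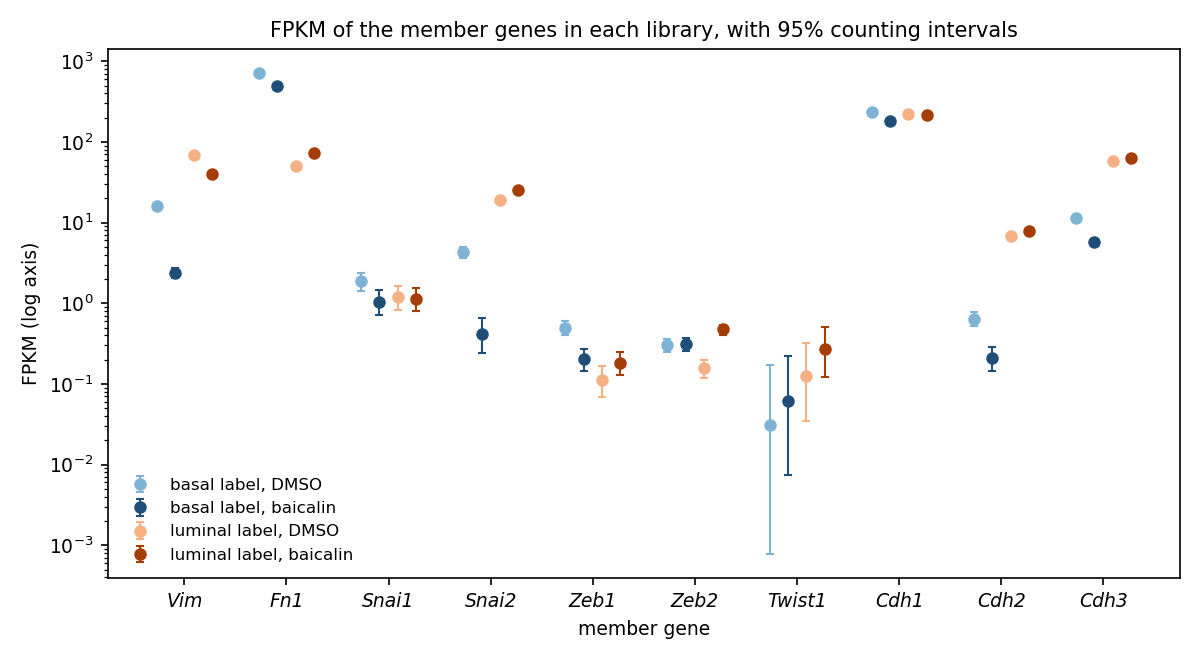
FPKM on a log axis of the 10 genes in each of the 4 libraries; points are single libraries and bars are exact Poisson 95% intervals from the fragments. Cdh1 lies between 180.0 and 238 FPKM in all 4 libraries, Fn1 is higher in the basal-labelled pair, and Vim, Snai2, Cdh2 and Cdh3 are higher in the luminal-labelled pair.

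Snai2, which encodes the zinc finger repressor Slug, was the only one of the 5 transcription factors above 2 FPKM in any library (ENSMUSG00000022676, chromosome 16, 14705852 to 14709385). It had 4.26 FPKM with DMSO and 0.415 FPKM with baicalin in the basal-labelled libraries, from 171 and 17 fragments. In the luminal-labelled libraries it had 19.0 and 25.2 FPKM, from 742 and 1052 fragments. The luminal-labelled libraries were again the high pair, and the basal-labelled baicalin library was lowest. Baicalin went with a 10.3-fold lower level (6.23 to 18.1) in the basal-labelled pair and with a ratio of 1.33 (1.21 to 1.46) in the luminal-labelled pair. Between labels the luminal-labelled level was 4.45-fold higher (3.76 to 5.29) with DMSO and 60.8-fold higher (37.8 to 105) with baicalin. Repeated sequence shared with transcripts of other genes made up 0.963% of the 50-base stretches of Snai2.

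Snai1, the other Snail repressor, stayed low (ENSMUSG00000042821, chromosome 2, 167538195 to 167542814). Its level was 1.86 and 1.03 FPKM in the basal-labelled DMSO and baicalin libraries and 1.18 and 1.14 FPKM in the luminal-labelled ones, from 34 to 60 fragments. The basal-labelled DMSO library was the highest of the 4. The baicalin ratio was 0.555 (0.353 to 0.859) in the basal-labelled pair and 0.963 (0.596 to 1.56) in the luminal-labelled pair, where the interval holds 1. The 2 Snail genes changed places within the basal-labelled pair: Snai2 was 2.29 times Snai1 (1.69 to 3.12) with DMSO and 0.401 times Snai1 (0.210 to 0.738) with baicalin. In the luminal-labelled libraries Snai2 was 16.1 times Snai1 (11.6 to 23.0) with DMSO and 22.2 times Snai1 (16.1 to 31.6) with baicalin.

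The 250 bases before the RefSeq start of Snai1 are shown because they hold an E-box of the form CACCTG, the letters that Snail and ZEB factors are known to bind. The window is GRCm38.p6 chr2:167537945-167538194 on the plus strand, 5′ to 3′, and capitals mark that E-box, which begins 126 bases before the start.
Snai1: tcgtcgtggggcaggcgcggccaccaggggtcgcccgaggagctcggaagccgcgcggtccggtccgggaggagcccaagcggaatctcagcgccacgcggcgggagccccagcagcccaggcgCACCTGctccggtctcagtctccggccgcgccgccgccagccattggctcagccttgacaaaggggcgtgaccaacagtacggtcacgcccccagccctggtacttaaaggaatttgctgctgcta
CACCTG on either strand was present in 17.2% of the 32851 RefSeq windows of the same length. The wider E-box CANNTG, which includes CACCTG, was present in 66.2% of them. Of the 10 genes, 4 had a window in the RefSeq table used, and neither form was in those of Vim, Zeb2 and Twist1. The genes without a window were Fn1, Snai2, Zeb1, Cdh1, Cdh2 and Cdh3. A match or its absence is a description of these letters and says nothing about binding.

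Zeb1 and Zeb2, zinc finger and homeobox repressors of E-cadherin, were below 0.5 FPKM in all 4 libraries. Zeb1 (ENSMUSG00000024238, chromosome 18, 5591860 to 5775467) had 0.4955 and 0.202 FPKM in the basal-labelled DMSO and baicalin libraries and 0.111 and 0.184 FPKM in the luminal-labelled ones. It was therefore highest in the basal-labelled DMSO library, unlike Snai2. Its baicalin ratio was 0.407 (0.277 to 0.589) in the basal-labelled pair and 1.66 (0.961 to 2.94) in the luminal-labelled pair, on 39 against 22 fragments in the latter. Zeb2 (ENSMUSG00000026872, chromosome 2, 44983632 to 45117395) had 0.301 and 0.309 FPKM in the basal-labelled libraries and 0.155 and 0.474 FPKM in the luminal-labelled ones. The 2 basal-labelled libraries were alike in Zeb2 within counting error, at a ratio of 1.03 (0.793 to 1.33), and the luminal-labelled baicalin library was 3.05-fold (2.27 to 4.14) above its DMSO library. The antisense gene Zeb2os overlaps 3.27% of the exon bases of Zeb2 and had at most 0.0506 FPKM.

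Twist1, a helix-loop-helix factor, was at the limit of detection (ENSMUSG00000035799, chromosome 12, 33957671 to 33959829). It had 1 and 2 fragments in the basal-labelled DMSO and baicalin libraries and 4 and 9 fragments in the luminal-labelled ones. These correspond to 0.0309, 0.0606, 0.127 and 0.268 FPKM. The baicalin ratio of 2.11 in the luminal-labelled pair had an interval of 0.589 to 9.37, and that of 1.96 in the basal-labelled pair an interval of 0.102 to 115. No difference in Twist1 was detectable at this depth.

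The 5 transcription factors together had 6.95 and 2.02 FPKM in the basal-labelled DMSO and baicalin libraries and 20.5 and 27.3 FPKM in the luminal-labelled ones. Snai2 supplied 61.3% and 20.5% of that sum in the basal-labelled libraries, and 92.3% and 92.4% in the luminal-labelled libraries.

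Cdh1, the E-cadherin of epithelial junctions, was the steadiest of the 10 genes in FPKM ratio (ENSMUSG00000000303, chromosome 8, 106603351 to 106670246). It had 238 and 180.0 FPKM in the basal-labelled DMSO and baicalin libraries and 222 and 215 FPKM in the luminal-labelled ones. In each library its level lay between the percentiles 99.1 and 99.4 among the genes above 0 FPKM in that library. The basal-labelled baicalin library was the lowest of the 4, with a baicalin ratio of 0.757 (0.742 to 0.773). In the luminal-labelled pair the ratio was 0.966 (0.947 to 0.985). Between labels the ratio of luminal to basal was 0.934 (0.916 to 0.953) with DMSO and 1.19 (1.17 to 1.22) with baicalin.

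Cdh3, the P-cadherin that marks the basal layer, lies 46053 bases before Cdh1 on the same strand (ENSMUSG00000061048, chromosome 8, 106510891 to 106557297). Its levels did not follow those of Cdh1: it had 11.5 and 5.79 FPKM in the basal-labelled DMSO and baicalin libraries and 58.4 and 62.3 FPKM in the luminal-labelled ones. The baicalin ratio was 0.503 (0.451 to 0.560) in the basal-labelled pair and 1.07 (1.03 to 1.11) in the luminal-labelled pair. The luminal-labelled level was 5.07-fold higher (4.74 to 5.43) with DMSO and 10.8-fold higher (9.83 to 11.8) with baicalin.

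Cdh2, the N-cadherin of neural and mesenchymal cells, was the least abundant of the 3 cadherins (ENSMUSG00000024304, chromosome 18, 16588877 to 16809246). It had 0.643 and 0.208 FPKM in the basal-labelled DMSO and baicalin libraries, from 103 and 34 fragments, and 6.85 and 7.91 FPKM in the luminal-labelled ones. Only the luminal-labelled libraries were above 1 FPKM. The baicalin ratio was 0.323 (0.213 to 0.480) in the basal-labelled pair and 1.16 (1.07 to 1.25) in the luminal-labelled pair. Between labels the luminal-labelled level was 10.6-fold higher (8.69 to 13.2) with DMSO and 38.1-fold higher (27.1 to 55.2) with baicalin.

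The make-up of the 3 cadherins therefore differed by label while Cdh1 remained the main one. Cdh1 supplied 95.1% and 96.8% of their summed FPKM in the basal-labelled DMSO and baicalin libraries, and 77.3% and 75.3% in the luminal-labelled ones. Cdh3 supplied 4.61% and 3.11% in the first pair and 20.3% and 21.9% in the second. The FPKM ratio of Cdh3 to Cdh1 was 0.0484 (0.0454 to 0.0516) with DMSO and 0.0322 (0.0294 to 0.0351) with baicalin in the basal-labelled pair. It was 0.263 (0.255 to 0.271) and 0.291 (0.282 to 0.299) in the luminal-labelled pair. The ratio of Cdh2 to Cdh1 did not exceed 0.0369 in any library.

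**Figure D2:**
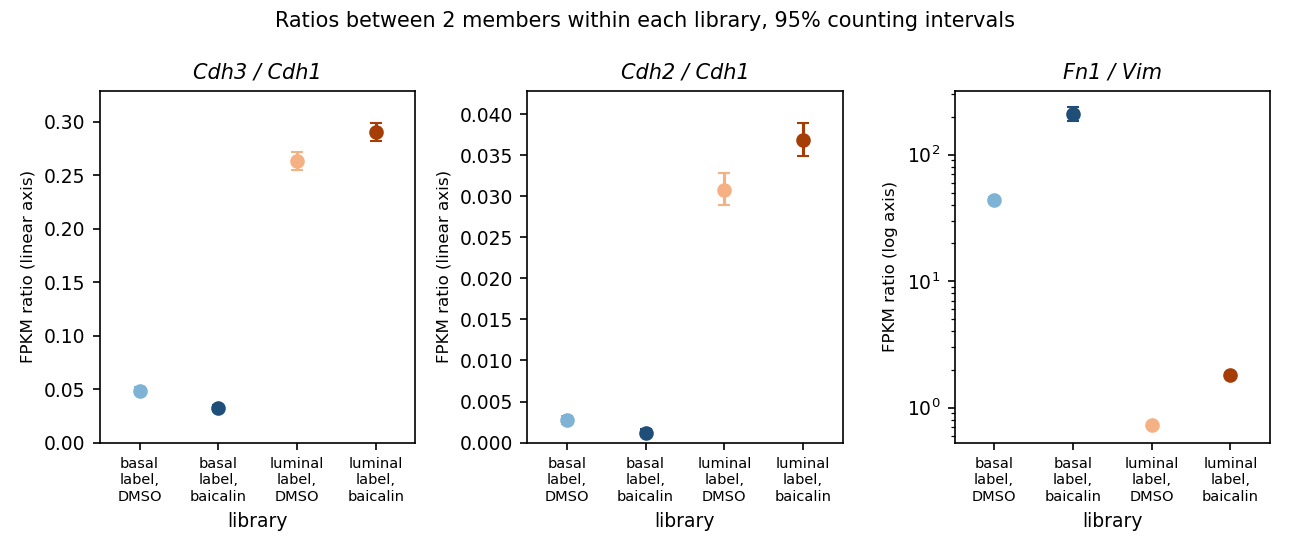
FPKM ratios between pairs of genes within each of the 4 libraries (Cdh3 to Cdh1 and Cdh2 to Cdh1 on linear axes from 0, Fn1 to Vim on a log axis), with exact 95% counting intervals as bars. Cdh3 stands at 0.0322 to 0.0484 of Cdh1 under the basal label and at 0.263 to 0.291 under the luminal label, and Fn1 to Vim goes from 209.9 down to 0.731.

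The 10 genes were then read together by comparison, with a gene taken as changed when log2((FPKM + 1)/(FPKM + 1)) exceeded 1 in size. With baicalin in the basal-labelled pair, 2 of the 10 genes, Vim and Snai2, were lower by more than 1 and 0 were higher. Over the 17787 genes tested, 3.33% were lower and 2.15% higher by more than 1. With no threshold, 8 of the 10 genes were lower, where 49.1% of all tested genes were. The median change of the 10 genes was -0.47, beside 0.01 over all tested genes. Snai2 and Vim had log2 changes of -1.90 and -2.35, lower than all but 0.826% and 0.354% of tested genes. Without the added FPKM, 4 genes were lower by more than 1, as Zeb1 and Cdh2 then joined at -1.30 and -1.63. On that scale 2054 of the 17787 genes tested were lower by more than 1.

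Markers of the basal layer moved with these genes in the same pair. Krt5 went from 128 to 3.007 FPKM, Trp63 from 6.01 to 0.3055 FPKM, Krt14 from 1494 to 417 FPKM and Acta2 from 7.66 to 3.49 FPKM. Of the 10 basal markers 9 were lower with baicalin, 4 of them by more than 1. The 10 luminal markers also had 7 lower, 3 of them by more than 1, and their sum went from 4537 to 3207 FPKM. Of all tested genes 49.1% were lower in this pair, and 3.33% by more than 1. The fibroblast list went from 48.6 to 16.8 FPKM in sum, most of it Postn at 40.8 and 13.5 FPKM, and 8 of its 10 genes were lower. Its collagen genes Col1a1, Col1a2 and Col3a1 had at most 2.47 FPKM in these libraries. The endothelial list summed to 0.995 and 1.59 FPKM. The immune list went from 16.7 to 53.7 FPKM in sum, and the rise was that of Cd68, a lysosomal protein of macrophages, from 7.49 to 51.5 FPKM. Lyz2, the lysozyme of myeloid cells, went from 8.84 to 2.17 FPKM, and 2 of the 3 immune genes above 0 in all 4 libraries were lower. The pan-leukocyte gene Ptprc, which encodes the CD45 of the sort gate, had 0.0138 FPKM and 0. The part of the basal, luminal and fibroblast markers in the change of Vim, Snai2 and Cdh3 was not tested.

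With baicalin in the luminal-labelled pair, 0 of the 10 genes changed by more than 1, beside 3.95% of all tested genes. With no test, this count cannot show that they did not change. Vim, Snai1 and Cdh1 were lower and the other 7 genes higher, beside 54.4% and 45.6% of all tested genes, with a median of 0.13 beside -0.02 over all tested genes. The changes ran from -0.78 for Vim to 0.51 for Fn1. Without the added FPKM, 2 genes passed 1: Zeb2 at 1.61 and Twist1 at 1.08, the latter on 9 against 4 fragments. On that scale 17.4% of all tested genes changed by more than 1. Of the 10 basal markers 5 were higher and 5 lower in this pair. Krt5 was at 2015 and 2415 FPKM and Acta2 at 555 and 417 FPKM, and the fibroblast list summed to 288 and 178 FPKM, of which Postn was 276 and 167 FPKM. Postn and Pdgfra were the fibroblast genes that were lower, and the other 8 of the 10 were higher, with a list median of 0.14.

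**Figure D3:**
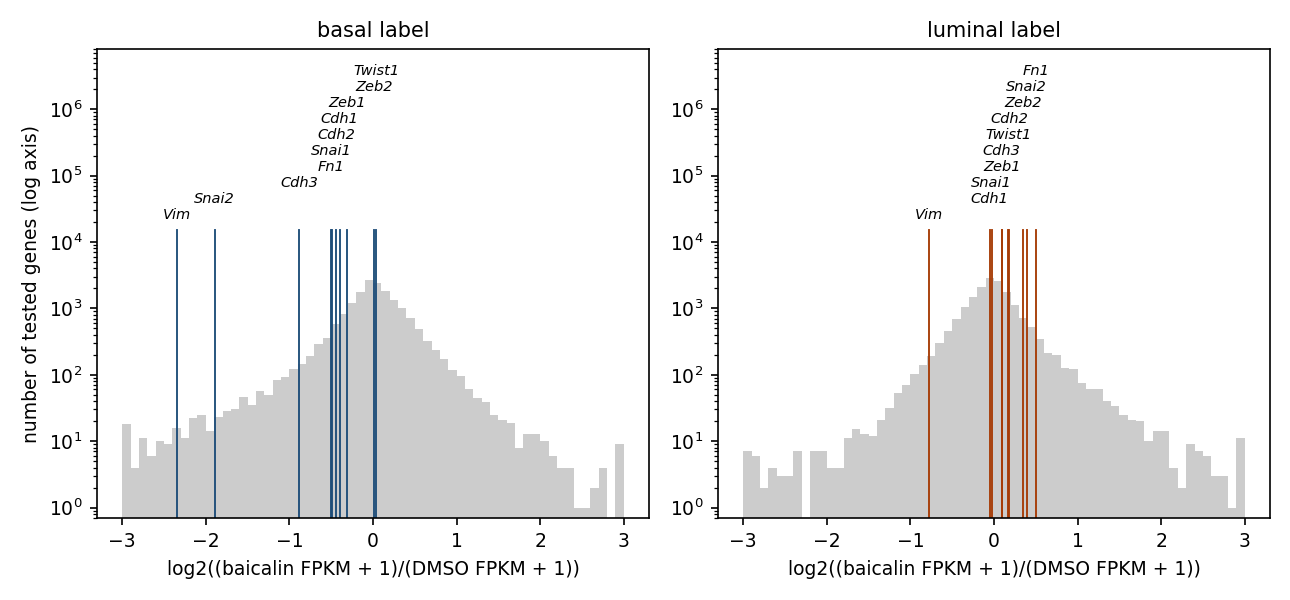
Number of tested genes (log axis) by log2((baicalin FPKM + 1)/(DMSO FPKM + 1)) in bins of 0.1, with values beyond 3 placed in the end bins, for the basal-labelled pair (left) and the luminal-labelled pair (right); lines mark the 10 genes. Vim at -2.35 and Snai2 at -1.90 lie in the lower tail on the left, and the 10 genes lie between -0.78 and 0.51 on the right.

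Between the labels with DMSO, Vim, Snai2, Cdh2 and Cdh3 were higher by more than 1 in the luminal-labelled library, with log2 changes of 2.03, 1.92, 2.26 and 2.25. Fn1 was lower, at -3.78. These were 4 and 1 of the 10 genes, beside 4.71% of all tested genes higher and 3.86% lower. With baicalin the same 4 genes were higher, at 3.603, 4.21, 2.88 and 3.22, and Fn1 was lower at -2.77, beside 5.24% of all tested genes higher and 2.99% lower. The other 5 genes, Snai1, Zeb1, Zeb2, Twist1 and Cdh1, lay between -0.43 and 0.26 in both comparisons. Without the added FPKM, Zeb1 joined Fn1 with DMSO, at -2.16, and Twist1 joined the higher genes at 2.04 with DMSO and 2.14 with baicalin, on at most 9 fragments. On that scale 27.0% of all tested genes changed by more than 1 with DMSO and 26.1% with baicalin. The basal markers Krt5, Krt14, Trp63 and Acta2 were higher in the same libraries as Vim, Snai2, Cdh2 and Cdh3, with Acta2 at 7.66 FPKM in the basal-labelled and 555 FPKM in the luminal-labelled DMSO library. The summed fibroblast list, 48.6 against 288 FPKM with DMSO, was also higher there through Postn, at 40.8 and 276 FPKM. Of its 10 genes 6 were lower, and its median was -0.15, beside 0.01 over all tested genes. The pericyte list was higher in sum at 27.1 against 87.8 FPKM, of which Mcam was 12.9 and 67.9 FPKM. Their part in these differences was not tested. The DMSO and baicalin libraries of a label enter more than 1 comparison, so the comparisons are not independent.

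**Figure D4:**
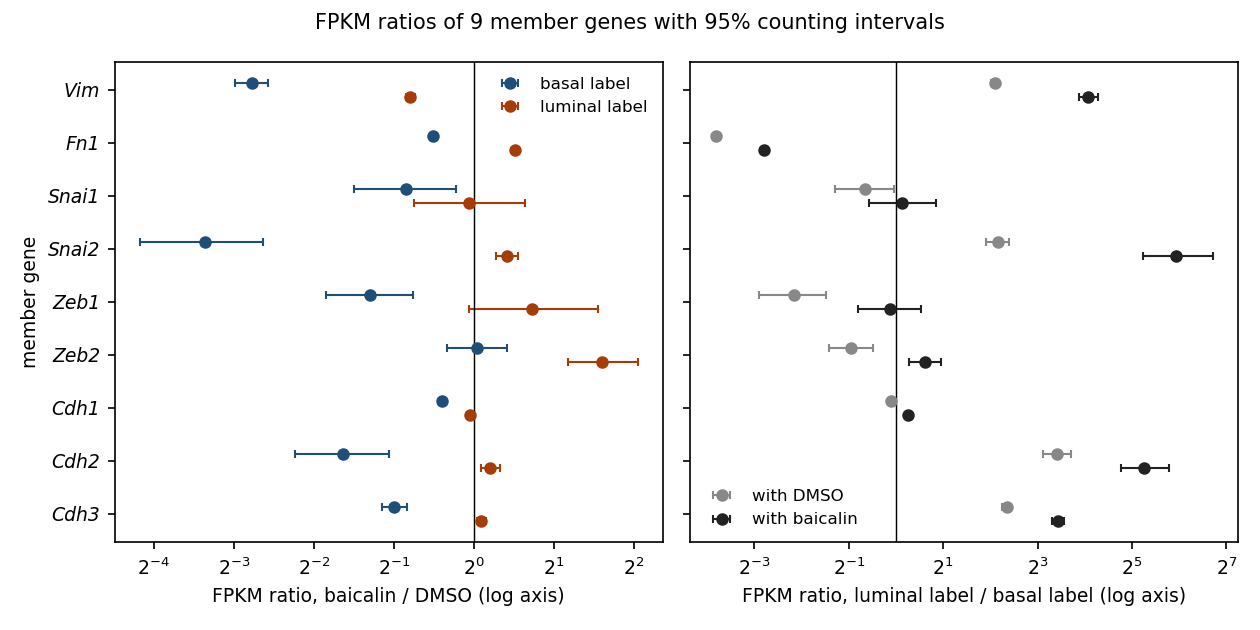
FPKM ratios on log axes with exact 95% counting intervals for 9 of the 10 genes (Twist1, with at most 9 fragments, is left out): baicalin over DMSO within each label on the left, luminal over basal label within each treatment on the right. Snai2 has the lowest baicalin ratio in the basal-labelled pair, 0.0973, and the highest ratio between labels, 60.8 with baicalin.

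Taking the baicalin change of the luminal-labelled pair minus that of the basal-labelled pair, the value was above 0 for 10 of the 10 genes, beside 45.2% of all tested genes. It exceeded 1 for Snai2, Vim and Fn1, at 2.29, 1.57 and 1.01, which was 3 of the 10 genes beside 4.41% of all tested genes. For Cdh3 and Cdh2 it was 0.97 and 0.63. For Snai1 and Twist1 the counting intervals of the 2 baicalin ratios overlapped, so the sign of their value is less certain. They were 0.353 to 0.859 and 0.596 to 1.56 for Snai1 (basal-labelled, luminal-labelled pair), and Twist1 had at most 9 fragments. Without the added FPKM 7 of the genes exceeded 1, as Zeb1, Zeb2, Cdh2 and Cdh3 joined at 2.03, 1.57, 1.84 and 1.09. More of all tested genes also passed 1 on that scale, as given under the dependence on processing. The median of the 10 genes was 0.55, beside -0.03 over all tested genes. Lists described below also lay mostly above 0: 10 of 11 desmosomal genes, 13 of 16 matrix partners and 10 of 12 filament genes, with medians of 1.18, 0.72 and 0.41. For adherens junction partners, other transition regulators and epithelial regulators it was 11 of 15, 8 of 11 and 8 of 14, with medians of 0.34, 0.15 and 0.05. The shift was therefore not particular to the 10 genes. With no replicate in any group this difference was not tested.

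The adherens junction genes bind cadherins inside the cell or stand beside them at the membrane. Of 15 adherens junction partners, 1 was lower by more than 1 with baicalin in the basal-labelled pair, beside 3.33% of all tested genes. That gene was Nectin3, with 1.99 and 0.298 FPKM there and 0.96 and 0.90 FPKM in the luminal-labelled pair. In the luminal-labelled pair 0 changed by more than 1, beside 3.95%. The medians were -0.25 and 0.09, beside 0.01 and -0.02 over all tested genes in the same pairs. Jup, the plakoglobin that links cadherins to filaments, had 58.9 and 45.3 FPKM in the basal-labelled libraries and 65.5 and 94.9 FPKM in the luminal-labelled ones. Pkp4, an armadillo protein of junctions, had 28.2 and 14.0 FPKM in the basal-labelled pair and 35.2 and 33.1 FPKM in the luminal-labelled pair. Nectin2, an adhesion molecule of the immunoglobulin family, had 23.9 and 34.6 FPKM in the first pair and 13.1 and 16.7 FPKM in the second. Arvcf, a catenin of the p120 family, had 4.98 and 10.04 FPKM in the first and 6.17 and 4.89 FPKM in the second.

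Desmosomes anchor intermediate filaments through cadherins of their own. Of 12 desmosomal genes listed, 11 were above 0 in all 4 libraries. With baicalin in the basal-labelled pair, 2 of the 11 were lower by more than 1, beside 3.33% of all tested genes. In the luminal-labelled pair 3 were higher by more than 1, where 3.95% of all tested genes changed in either direction. The medians were -0.28 and 0.57, beside 0.01 and -0.02 over all tested genes. The desmosomal cadherin Dsg3 had 23.1 and 8.68 FPKM in the basal-labelled libraries and 70.8 and 173 FPKM in the luminal-labelled ones. Dsc3, its desmocollin partner in basal epithelium, had 1.98 and 0.1825 FPKM in the first pair and 39.1 and 52.3 FPKM in the second, the same order of libraries as Snai2. Dsg1a and Dsg1b, which are close paralogs whose fragments may be split between them, had at most 0.229 FPKM in the first pair. In the luminal-labelled DMSO and baicalin libraries they had 2.57 and 9.28 FPKM (Dsg1a) and 1.73 and 10.6 FPKM (Dsg1b).

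Among 17 fibronectin receptors and matrix partners, 16 were above 0 in all 4 libraries. With baicalin in the basal-labelled pair, 2 were higher and 2 lower by more than 1, beside 2.15% and 3.33% of all tested genes. In the luminal-labelled pair 2 were higher and 0 lower, where 3.95% of all tested genes changed in either direction. The medians were -0.28 and 0.17, beside 0.01 and -0.02 over all tested genes. Sparc, a collagen-binding matrix protein, had 8.10 and 2.03 FPKM in the basal-labelled libraries and 174 and 126 FPKM in the luminal-labelled ones, so it stood with Vim and not with Fn1 in its order of labels. Tgm2, the transglutaminase that crosslinks fibronectin, had 12.4 and 31.5 FPKM in the first pair and 5.73 and 6.31 FPKM in the second. Lox, which crosslinks collagen, had 4.04 and 12.0 FPKM in the first and 1.24 and 11.1 FPKM in the second, higher with baicalin under both labels. Fbln1, a fibulin that binds fibronectin, had 0.277 and 0.0113 FPKM in the first and 5.50 and 3.67 FPKM in the second.

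Among 14 other filament and mesenchymal cytoskeleton genes, 12 were above 0 in all 4 libraries. With baicalin in the basal-labelled pair 0 of them changed by more than 1, beside 5.48% of all tested genes. In the luminal-labelled pair 1 was higher by more than 1, Fscn1, and 1 was lower, Tagln, where 3.95% of all tested genes changed. Fscn1 had 19.3 and 16.9 FPKM in the basal-labelled pair and 6.86 and 24.5 FPKM in the luminal-labelled one. The medians were -0.13 and 0.25, beside 0.01 and -0.02 over all tested genes. Tagln, the smooth muscle protein transgelin, had 1.90 and 1.36 FPKM in the basal-labelled libraries and 97.6 and 47.2 FPKM in the luminal-labelled ones. Tpm2, a tropomyosin, had 41.4 and 20.2 FPKM in the first pair and 66.2 and 86.5 FPKM in the second. Mylk, the myosin light chain kinase, had 0.188 and 0.1401 FPKM in the first and 5.76 and 3.29 FPKM in the second. Tagln, Tpm2, Mylk and Acta2 also mark myoepithelial cells.

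Among 14 transcription factors and cofactors of the transition outside the 10 genes, 11 were above 0 in all 4 libraries. With baicalin 0 of them changed by more than 1 in the basal-labelled or luminal-labelled pair, beside 5.48% and 3.95% of all tested genes. The medians were -0.14 and 0.07, beside 0.01 and -0.02 over all tested genes. Between labels, Tgfb1i1, a focal adhesion cofactor, had 0.631 and 0.512 FPKM in the basal-labelled libraries and 6.58 and 9.25 FPKM in the luminal-labelled ones. Hmga2, a chromatin protein known to promote Snai1 transcription, ran the other way with 20.8 and 16.1 FPKM in the first pair and 1.60 and 3.597 FPKM in the second. Tcf4 had 3.75 and 2.74 FPKM in the first and 7.82 and 5.06 FPKM in the second. Foxc1 had 17.5 and 12.0 FPKM in the first and 9.10 and 9.61 FPKM in the second.

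Regulators that keep cells epithelial numbered 14, all of them above 0 in all 4 libraries. With baicalin 1 was lower by more than 1 in the basal-labelled pair, Elf5, beside 3.33% of all tested genes. Elf5 had 14.9 and 5.63 FPKM in that pair and 6.51 and 3.18 FPKM in the luminal-labelled one. In the luminal-labelled pair 2 were higher, Klf4 and Grhl3, and 1 lower, Foxa1, where 3.95% of all tested genes changed in either direction. Grhl3 had 7.82 and 9.85 FPKM in the basal-labelled pair and 7.15 and 18.1 FPKM in the luminal-labelled one. The medians were -0.03 and -0.12, beside 0.01 and -0.02 over all tested genes. Klf4, a factor of epithelial differentiation, had 34.1 and 41.0 FPKM in the basal-labelled libraries and 19.3 and 54.3 FPKM in the luminal-labelled ones. Foxa1, a pioneer factor of hormone-sensing luminal cells, had 1.80 and 1.35 FPKM in the first pair and 9.30 and 1.09 FPKM in the second. Elf3 had 7.25 and 11.3 FPKM in the first and 3.54 and 2.73 FPKM in the second. Ovol2, a repressor of Zeb1, had 1.95 and 1.75 FPKM in the first and 6.09 and 3.58 FPKM in the second.

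**Figure D5:**
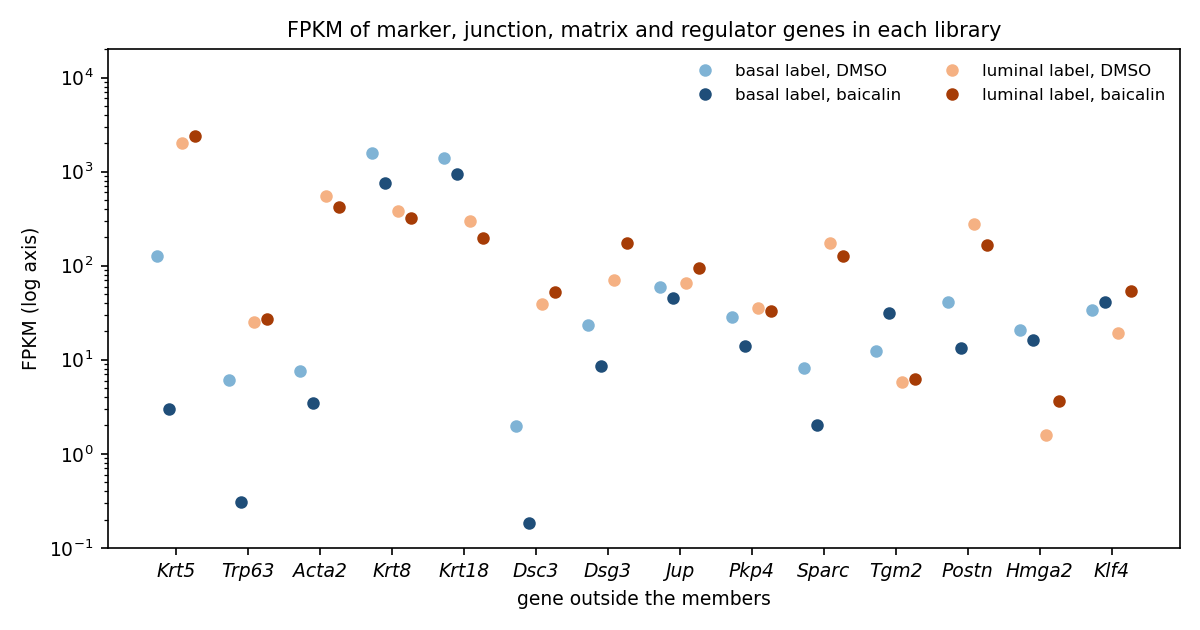
FPKM on a log axis of 14 marker, junction, matrix and regulator genes outside the 10 genes, 1 point per library. Krt5, Trp63, Acta2, Dsc3, Dsg3, Sparc and Postn are higher under the luminal label and lower with baicalin under the basal label, and Krt8, Krt18, Tgm2 and Hmga2 are higher under the basal label.

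Vim, Fn1, Snai1, Cdh1 and Cdh3 had 1 FPKM or more in all 4 libraries, and likeness to them was measured as the root mean square difference of log2(FPKM + 1), centred over the 4 libraries, so each profile is 4 points. Emb and Col7a1 were among the 3 nearest genes to Vim, at 0.17 and 0.27, while Vim itself spanned 4.38. The nearest to Fn1, which spanned 3.78, were Foxj1, Cldn6 and Tnfrsf11b, at 0.11, 0.12 and 0.19. The nearest to Cdh3, which spanned 3.22, were Hist1h2bg, Efna3 and Ppp1r14c, at 0.14, 0.15 and 0.17. Emb had 23.0 and 3.18 FPKM in the basal-labelled libraries and 79.7 and 63.8 FPKM in the luminal-labelled ones. Cldn6 had 51.6 and 30.4 FPKM in the first pair and 3.09 and 4.502 FPKM in the second. Cdh1 and Snai1 spanned 0.40 and 0.49, and their nearest genes were Psmd6 and Rbm10, at 0.01 each. The similarly small spans of these nearest genes follow from how they were picked. The 1 FPKM added shrinks the span of Snai1, whose baicalin ratio in the basal-labelled pair was 0.555.

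The order of the 10 genes by FPKM changed with the label. Fn1 was first and Cdh1 second in both basal-labelled libraries, and Cdh1 was first in both luminal-labelled libraries. Vim ranked 3 and 4 in the basal-labelled DMSO and baicalin libraries, and 2 and 4 in the luminal-labelled ones. At the low end the intervals of neighbours overlapped: Cdh2 and Zeb1 in the basal-labelled DMSO library, Snai2, Zeb2, Cdh2, Zeb1 and Twist1 in turn in the basal-labelled baicalin library, and Zeb2, Twist1 and Zeb1 in turn in both luminal-labelled libraries.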

How the data were processed

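Polyadenylated RNA of the 4 cultures was made into strand-specific libraries. Per the paper's methods, reads were mapped with HISAT2 to GRCm38 with Ensembl release 94 genes and counted with featureCounts 1.5.0, and the authors deposited FPKM per gene. The submitters' processing notes also name Bowtie 0.12.2 and the genome build mm8 beside GRCm38, with no role given for either. Strand setting, pooling of mice and any further scaling are not given in the sources used here, so overlapping antisense genes are uncertain.

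Gene positions and exon lengths came from GENCODE mouse release 21 (GRCm38), which gave a length for 54409 genes. The spacing of low FPKM values, taken with exon length, gave each library's depth (19356108 to 20648786 fragments) and each gene's fragments. Within 0.1 fragment, 98.7% to 98.9% of genes with under 50 fragments came out whole. Fragments served for intervals only, with no count test. Changes used 1 FPKM added and genes above 0 in all 4 libraries. The threshold was 1. The t-test of the study needs replicates, and none was made here.

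The 10 genes and the lists were chosen with earlier results of these data known. All 10 were named, with, for each pathway list, the 4 genes of largest change over the 4 comparisons among those reaching 5 FPKM, the markers Krt5, Krt14, Acta2, Trp63, Krt8 and Krt18, and the 3 nearest profiles of a gene, of which 1 is not reported here. Marker lists were to be given as sums, and other marker genes (Postn, Pdgfra, Cd68, Lyz2, Ptprc, Mcam and collagens) were named after their values were seen. Elf5, Grhl3, Nectin3 and Fscn1 were also named after their values were seen, as genes past the threshold. Alternatives were pseudocounts of 0.1 and 0, no filter, a filter requiring 1 FPKM somewhere, TPM, centring and a threshold of 2. The computation was tested on simulated data. The software was Python 3.11.15 with scipy 1.17.1, numpy 2.4.6, pandas 2.3.3 and, for plots, matplotlib 3.10.9.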

Additional observations from a re-analysis of the deposited data

Results flagged for a closer look

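For 4 genes the baicalin change had opposite signs under the 2 labels, with both counting intervals clear of 1. How many of all tested genes meet this rule was not counted, so the 4 cannot be called unusual. Counting intervals are narrow at high fragment counts, and Cdh3 cleared 1 at a ratio of 1.07 (1.03 to 1.11) in the luminal-labelled pair. The luminal-labelled minus the basal-labelled log2 change, with 1 FPKM added, was 2.29 for Snai2 (0.39 against -1.90) and 1.01 for Fn1 (0.51 against -0.50). It was 0.97 for Cdh3 (0.09 against -0.88) and 0.63 for Cdh2 (0.18 against -0.44). Each side is 1 library against 1 library, so the difference between the labels was not tested. No group had enough libraries to look for an outlying one.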

How the results depend on the processing

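No paired analysis was possible because each group holds 1 library. Of the 40 changes of single genes (10 genes in 4 comparisons), 1 changed sign under an alternative: Zeb1 between labels with baicalin, from -0.02 to 0.01 after centring.
Leaving out a library was not possible for the same reason.

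With baicalin in the basal-labelled pair, the genes lower by more than the threshold went from 2 to 4 with no pseudocount and to 1 at a threshold of 2. In the luminal-labelled pair the genes higher went from 0 to 1 with a pseudocount of 0.1 (Zeb2, at 1.17) and to 2 with none. Between labels with DMSO the genes lower went from 1 to 2 with 0.1, with none and in TPM, where Zeb1 joined. The difference between the baicalin changes of the labels exceeded 1 for 7 genes with 0.1, for 7 with none and for 5 in TPM, against 3. The median of the 10 genes in the basal-labelled pair was -0.89 with 0.1, -0.92 with none and -0.72 in TPM. Between labels with DMSO it was 1.92 over the genes reaching 1 FPKM. Between labels with baicalin it was 1.38 with no pseudocount and 2.88 over the genes reaching 1 FPKM. For the difference between labels it was 1.105 with 0.1 and 1.33 with none. The filter of 1 FPKM in a library leaves out Zeb1, Zeb2 and Twist1, and Cdh2 passes it only through the luminal-labelled libraries. The medians of 1.92 and 2.88 are thus over fewer genes and equal the changes of Snai2 and Cdh2. Over all 10 genes they were 0.02 and 0.25, so the rise describes the filter and not a shift of the set.

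The share of all tested genes past the threshold rose in each comparison with a smaller pseudocount. With a pseudocount of 0.1 it was 13.6% and 11.05% for baicalin in the basal-labelled and luminal-labelled pairs, 19.6% and 18.9% between labels with DMSO and with baicalin, and 18.4% for the difference. With none it was 21.1%, 17.4%, 27.0%, 26.1% and 25.9% in that order. In TPM it was 9.55%, 7.29%, 14.5%, 14.2% and 12.9%. With no filter the first 4 were 1.996%, 1.57%, 3.10% and 3.00%, and at a threshold of 2 they were 0.973%, 0.596%, 1.88% and 1.69%. Over genes reaching 1 FPKM it was 6.18% in the luminal-labelled pair.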

Other observations

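Beside Cdh1, Cdh2 and Cdh3, 20 genes named Cdh with a number had at most 5.39 FPKM each. Of these 20 genes, 8 were above 0 FPKM in all 4 libraries, and the 20 summed to 11.2 and 5.73 FPKM in the basal-labelled DMSO and baicalin libraries and 7.48 and 7.86 FPKM in the luminal-labelled ones. Cdh13, a cadherin anchored to the membrane by lipid, had 5.39 and 1.23 FPKM in the basal-labelled pair and 1.53 and 1.65 FPKM in the luminal-labelled pair. Its log2 change with baicalin in the basal-labelled pair was -1.52. It was the only one of the 8 past 1 there, beside 5.48% of all tested genes. In the luminal-labelled pair 0 of the 8 changed by more than 1, beside 3.95%. Cdh5, the cadherin of endothelium, named after its values were seen, had 0.431 and 0.587 FPKM in the first pair and 0.529 and 1.34 FPKM in the second.

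Tnc, which encodes tenascin-C, a matrix glycoprotein that binds fibronectin, was picked out after its values were seen. It had 111 FPKM with DMSO and 29.6 FPKM with baicalin under the basal label, and 52.0 and 133 FPKM under the luminal label. The log2 changes with 1 FPKM added were -1.87 and 1.33. With 1 library per group neither change was tested, and the difference between them was not tested.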
